A study of Mus musculus with 6 samples.

Results

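Cholesterol and long-chain fatty acids are both built from acetyl-CoA, and 32 genes of that synthesis and its control were followed in RAW264.7 cells, an immortalised mouse macrophage line, given RANKL with or without etelcalcetide. The 32 genes were chosen by their role, and all 32 were found by symbol among the 55536 Ensembl gene IDs of the deposited tables through the mouse annotation GENCODE M21. They comprise 8 genes of the mevalonate part of the pathway, 10 of the sterol part, 6 of sterol-dependent control and transport, and 8 of fatty acid synthesis and desaturation. All 32 also passed the minimum level for testing, which left 11120 genes in all.

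Bulk RNA was sequenced from 3 libraries of cells given RANKL at 50 ng/mL plus 4 µM etelcalcetide, and from 3 libraries of cells given RANKL at 50 ng/mL alone. RANKL is the cytokine that turns macrophage precursors towards osteoclasts, and etelcalcetide is a peptide agonist of the calcium-sensing receptor. Cells without RANKL were not analysed here. The sample labels give 5, 6 and 7 days of exposure for replicates 1, 2 and 3 of both groups, whereas the series design gives 5 days. If the labelled days hold, replicates of a group differ in exposure, and the spread behind each p-value includes that difference; whether they were also separate cultures is not stated.

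Recovered depth was 13742913 to 16264432 gene-assigned reads with etelcalcetide and 14530043 to 15877596 with RANKL alone. Of the 8 macrophage markers, 7 were high enough to test, of which 4 rose with etelcalcetide and 0 fell, against 26.0% and 27.0% of all genes tested. The summed level of the 8, before scaling, was 2969 to 3127 FPKM with etelcalcetide and 2638 to 2788 FPKM with RANKL alone. Lyz2 was the largest part of that sum, with means of 1830 and 1748 FPKM in the same order, and its values overlapped between the groups. Of the 6 osteoclast markers, 5 were tested and all 5 fell, with a sum of 5.51 to 7.36 FPKM with etelcalcetide and 196 to 284 FPKM with RANKL alone. The part of this shift in cell state in the lipid gene results was not tested, and in bulk RNA fewer cells of a type and less RNA per cell cannot be told apart. No marker of adipocytes, hepatocytes, fibroblasts, epithelium or lymphocytes was high enough to test, and the defining adipocyte genes Adipoq and Plin1 and the hepatocyte gene Alb had 0 reads in every library.

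The mevalonate part of the pathway joins acetyl-CoA units into isoprenoid blocks and then squalene, and the sterol part turns squalene into cholesterol. Transcription of most of these genes is driven by SREBP2, a membrane-bound factor that SCAP escorts from the endoplasmic reticulum to the Golgi for cleavage when sterols are scarce, while INSIG proteins hold it back when sterols are plentiful. SREBP1, encoded by Srebf1, acts on fatty acid genes. Srebf1 has several listed transcription starts, and gene-level values do not tell its forms apart. Macrophages are known to adjust cholesterol and fatty acid synthesis during activation, and osteoclast formation depends on products of the mevalonate pathway, the target of bisphosphonate drugs.

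Most of the synthesis genes were lower with etelcalcetide, by modest amounts. Of the 32 genes, 18 fell and 3 rose (limma with Benjamini-Hochberg adjustment over all genes tested, adjusted p under 0.05), and 11 did not pass. The shares were 56.2% lower and 9.38% higher of the 32 genes, against 27.0% lower and 26.0% higher of all genes tested, of which 53.0% changed in all. The median log2 fold change was -0.26 over the 32 genes and -0.01 over all genes tested. None of the 32 changed by 2-fold, a size at which 2.92% of all genes tested fell and 4.10% rose. A fall past 1.5-fold was seen for 7 of the 32 (21.9%), against 8.08% of all genes tested: Hmgcs1, Idi1, Cyp51, Hsd17b7, Insig1, Stard4 and Elovl6. One gene, Tm7sf2, rose past 1.5-fold, where 9.94% of all genes did. Before scaling, all 3 etelcalcetide values lay below all 3 RANKL values for 15 of the 32 genes, against 24.5% of all genes tested, and above them for 5, against 36.7%. After scaling these counts were 19, against 31.2% of all genes tested, and 5, against 30.7%.

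The sterol part held the lowest median, -0.50, with 7 of 10 genes lower and 1 higher. The mevalonate part had 4 of 8 lower and 0 higher, with a median of -0.27. The fatty acid part had 5 of 8 lower and 0 higher, with a median of -0.21. Of the control and transport genes, 2 of 6 were lower and 2 of 6 higher (33.3% each), with a median of -0.08. Over all genes tested 27.0% fell and 26.0% rose, so these 6 genes stood near those shares. These medians and counts describe the parts of the pathway and were not tested against each other. With library totals in place of the scaling factors described below, 15 of the 32 fell and 5 rose. Of all 11120 genes tested, 2272 fell (20.4%) and 3558 rose in that setting. Among genes called, the share that rose was 61.0% over all genes and 25% over the 32, against 49.1% and 14.3% with the factors.

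**Figure D1:**
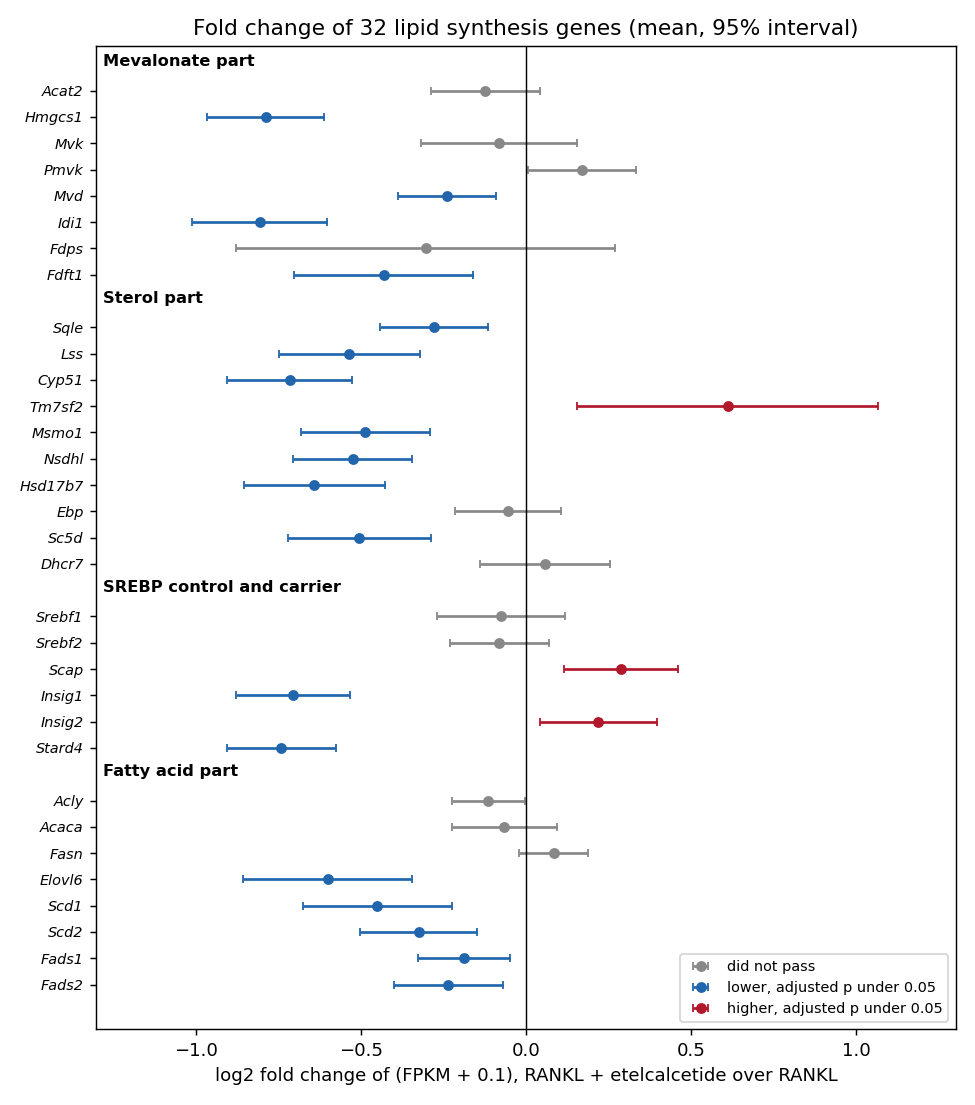
Log2 fold change of FPKM + 0.1 (x axis, RANKL plus etelcalcetide over RANKL) for each of the 32 genes in pathway order (y axis), with points for the limma estimate and bars for its 95% interval; colour marks the call at an adjusted p of 0.05. Points lie left of 0 for 26 of the 32 genes, from -0.81 for Idi1 to 0.61 for Tm7sf2.

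The promoters of the genes that fell most can be read beside those of genes that did not pass. RefSeq windows on GRCm38.p6, from 250 bases before to 50 bases after a transcription start, were listed for 25 of the 32 genes, and both strands were searched for CCAAT (the NF-Y box), GGGCGG (an Sp1 box), TCACNCCAC (a sterol regulatory element, the DNA site of SREBP) and its looser core CACNCCAC, which every TCACNCCAC match contains. Apart from that 1 nested match, no matches of different motifs overlapped in these windows. Of the 25 genes, 20 held CCAAT, among them 9 of 9 listed sterol genes and 2 of 5 listed fatty acid genes, against 43.4% of 8357 tested genes and 37.4% of all 32851 windows. GGGCGG was in 21 of 25, against 70.4% of tested genes and 35.7% of all windows. The strict element TCACNCCAC was in 1 of 25, Hmgcs1, against 1.40% of tested genes and 1.24% of all windows, and the looser core was in 3, Hmgcs1, Acat2 and Insig1, against 7.39% of tested genes and 6.24% of all windows. By outcome, CCAAT was in 10 of 12 genes that fell, 2 of 3 that rose and 8 of 10 that did not pass. Only those 12 of the 18 genes that fell had a listed window. Fdft1, Sqle, Stard4, Scd1, Scd2 and Fads1 fell but had none, nor did Fdps, which did not pass. The only Acaca window began at 84195188, inside the gene, which starts at 84129672. Elovl6 and Fads2 fell without holding it. A gene was counted when any of its windows held the motif, a match is a string of letters and not a shown binding site, and these shares were not tested. Sites that differ from these strings were not searched for, so a window without a match was not shown to lack a sterol regulatory element.

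The windows printed are those of 4 genes that fell past 1.5-fold (Hmgcs1, Idi1, Cyp51 and Insig1) and of 2 that did not pass, the SREBP2 gene itself and the fatty acid synthase gene Fasn. Of the other genes that fell past 1.5-fold, Hsd17b7 held 3 CCAAT matches and Elovl6 held no match to any of the motifs. Stard4 had no listed window. They are chr13:119690101-119690400 on the plus strand for Hmgcs1, chr13:8885356-8885655 plus for Idi1, chr5:4104648-4104947 minus for Cyp51, chr5:28071162-28071461 plus for Insig1, chr15:82147019-82147318 plus for Srebf2 and chr11:120824498-120824797 minus for Fasn, each written 5′ to 3′ on the gene's strand. Capitals mark CCAAT or its complement ATTGG and the sterol element or its core.
Hmgcs1: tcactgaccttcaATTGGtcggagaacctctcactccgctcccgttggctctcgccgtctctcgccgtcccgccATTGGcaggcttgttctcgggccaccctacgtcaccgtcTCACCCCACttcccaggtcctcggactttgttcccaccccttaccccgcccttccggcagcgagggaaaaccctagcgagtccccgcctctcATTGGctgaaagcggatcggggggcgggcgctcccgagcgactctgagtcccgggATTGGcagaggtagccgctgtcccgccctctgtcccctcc
Idi1: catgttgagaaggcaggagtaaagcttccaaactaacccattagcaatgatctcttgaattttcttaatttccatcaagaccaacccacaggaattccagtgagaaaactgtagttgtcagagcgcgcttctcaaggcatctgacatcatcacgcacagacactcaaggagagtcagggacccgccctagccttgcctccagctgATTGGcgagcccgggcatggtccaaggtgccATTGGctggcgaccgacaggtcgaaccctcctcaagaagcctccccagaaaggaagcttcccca
Cyp51: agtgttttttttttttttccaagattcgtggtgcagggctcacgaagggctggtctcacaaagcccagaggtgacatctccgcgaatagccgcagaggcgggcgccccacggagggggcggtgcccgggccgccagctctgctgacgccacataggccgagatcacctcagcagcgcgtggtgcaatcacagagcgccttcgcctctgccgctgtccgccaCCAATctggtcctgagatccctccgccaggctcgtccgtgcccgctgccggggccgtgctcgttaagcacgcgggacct
Insig1: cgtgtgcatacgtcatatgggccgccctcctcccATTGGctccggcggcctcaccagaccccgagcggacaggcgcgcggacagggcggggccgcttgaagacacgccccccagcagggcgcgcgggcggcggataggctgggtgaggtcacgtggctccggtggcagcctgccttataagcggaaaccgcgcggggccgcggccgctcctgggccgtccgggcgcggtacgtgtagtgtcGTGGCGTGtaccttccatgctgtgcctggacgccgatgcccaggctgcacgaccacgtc
Srebf2: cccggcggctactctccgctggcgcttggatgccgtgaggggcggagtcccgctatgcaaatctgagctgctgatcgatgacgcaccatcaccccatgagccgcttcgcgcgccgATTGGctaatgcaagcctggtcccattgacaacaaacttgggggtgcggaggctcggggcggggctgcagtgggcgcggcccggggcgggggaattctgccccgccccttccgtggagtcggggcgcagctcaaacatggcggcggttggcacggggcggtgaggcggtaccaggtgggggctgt
Fasn: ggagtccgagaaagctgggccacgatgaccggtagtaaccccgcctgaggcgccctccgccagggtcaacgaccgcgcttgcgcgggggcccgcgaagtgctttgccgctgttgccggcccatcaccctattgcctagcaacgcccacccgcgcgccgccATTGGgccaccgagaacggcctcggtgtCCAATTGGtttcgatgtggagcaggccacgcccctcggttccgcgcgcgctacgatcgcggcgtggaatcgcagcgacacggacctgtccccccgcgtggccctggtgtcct
Hmgcs1 carried 4 CCAAT matches and the only strict sterol element, which began 137 bases before the start. Idi1 carried 2 CCAAT matches and Cyp51 carried 1, while Insig1 carried 1 together with a core element on the opposite strand. Srebf2 and Fasn, which did not pass the test, carried 1 and 3 CCAAT matches.

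In the mevalonate part, Hmgcs1 and Idi1 fell most. Hmgcs1 encodes the cytosolic synthase that condenses acetoacetyl-CoA with acetyl-CoA (ENSMUSG00000093930, GRCm38 chromosome 13, 119690379 to 119708260). It stood at 11.4, 11.2 and 10.4 FPKM in the etelcalcetide libraries, against 18.8, 19.0 and 16.4 FPKM in the RANKL libraries (replicates 1, 2 and 3 in each list of this kind). FPKM scales reads by exon length and library total. The highest etelcalcetide library lay well below the lowest RANKL library, a 1.73-fold fall (log2 fold change -0.79, SE 0.0786, limma adjusted p = 6.01e-05). Idi1, the isomerase that balances the isoprenoid building blocks (chromosome 13, 8885501 to 8892451), stood at 4.85, 4.24 and 4.63 FPKM with etelcalcetide, against 8.45, 7.17 and 7.30 FPKM with RANKL alone. Its groups did not overlap either, and its fold change was -0.81 (SE 0.0903, limma adjusted p = 0.000120).

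Smaller falls were measured for Mvd and Fdft1. Mvd, the decarboxylase that makes isopentenyl diphosphate, averaged 20.2 ± 0.967 FPKM with etelcalcetide and 22.6 ± 1.74 FPKM with RANKL alone (SD, n = 3 each; log2 fold change -0.24, limma adjusted p = 0.0136). Fdft1, squalene synthase and the first step committed to sterols, averaged 7.37 ± 0.851 FPKM with etelcalcetide and 9.44 ± 1.19 FPKM with RANKL alone (-0.43, limma adjusted p = 0.0141). The call for Mvd was lost without etelcalcetide replicate 2 (limma adjusted p = 0.0526), and that for Fdft1 without RANKL replicate 2 (limma adjusted p = 0.0548). Fdft1 also shares 18.3% of its exon length with the abundant gene Ctsb on the opposite strand, and with no strand information in the sources used here its reads and those of Ctsb cannot be fully told apart.

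The other 4 mevalonate genes did not pass. The kinases that phosphorylate mevalonate in turn, Mvk and Pmvk, had log2 fold changes of -0.08 (95% interval -0.32 to 0.15) and 0.17 (limma adjusted p = 0.540 and 0.0774). Pmvk stood at 11.0, 11.3 and 11.0 FPKM with etelcalcetide, against 8.84, 10.1 and 9.20 FPKM with RANKL alone, so its groups did not overlap although the test was missed. It passed without RANKL replicate 2 (log2 fold change 0.23, limma adjusted p = 0.0411) and with library totals (0.25, limma adjusted p = 0.0162). Acat2, the thiolase that makes acetoacetyl-CoA, differed by -0.12 (95% interval -0.29 to 0.04), and by -0.07 without RANKL replicate 3. Fdps, farnesyl diphosphate synthase and the enzyme that nitrogen-containing bisphosphonates inhibit, was listed at only 0.508, 0.588 and 0.482 FPKM with etelcalcetide, against 0.545, 0.479 and 0.965 FPKM with RANKL alone (log2 fold change -0.30, 95% interval -0.88 to 0.27). The Fdps groups overlapped, with RANKL replicate 3 highest. Without that library the log2 fold change was -0.04 (limma adjusted p = 0.898), and without RANKL replicate 2 it was -0.47 (limma adjusted p = 0.182). Fdps had only 32 to 59 reads per library and a wide interval (SE 0.253), and the smallest change that could have been detected was not tested.

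Sequence shared with other genes limits several of these values. Of all 50-base stretches of a gene's annotated transcripts, 39.1% also occur in transcripts of another gene for Acat2, 26.2% for Fdps, 26.5% for Fdft1, 25.3% for Idi1 and 11.6% for Hmgcs1. The corresponding share was 30.4% for Acaca, 9.96% for Scap, 9.87% for Tm7sf2 and at most 4.56% for each of the other members. The sources used here do not give how the authors counted reads that fit several genes, and the levels of these genes are uncertain for that reason.

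In the sterol part, 7 of 10 genes fell, and they span the route from squalene to the last desaturation. Cyp51, the cytochrome that removes a methyl group from lanosterol (chromosome 5, 4081145 to 4104746), stood at 13.4, 11.4 and 10.8 FPKM with etelcalcetide, against 18.5, 18.7 and 18.1 FPKM with RANKL alone. Its RANKL libraries were nearly equal and all etelcalcetide libraries were lower, and the difference on the log2 scale was -0.71 (SE 0.0835, limma adjusted p = 0.000151). Hsd17b7, a reductase that acts on sterol ketones (chromosome 1, 169949535 to 169969241), stood at 4.94, 5.02 and 5.10 FPKM with etelcalcetide, against 6.98, 8.48 and 7.00 FPKM with RANKL alone. The etelcalcetide values were the tighter group, and the fold change was -0.64 (SE 0.0941, limma adjusted p = 0.000551).

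The other sterol genes that fell did so by 1.21-fold to 1.45-fold. Lss, the cyclase that folds oxidised squalene into lanosterol, stood at 4.09, 3.33 and 3.63 FPKM with etelcalcetide, against 5.11, 4.89 and 5.23 FPKM with RANKL alone (log2 fold change -0.53, limma adjusted p = 0.00144). Nsdhl and Msmo1, which together strip further methyl groups from the sterol ring, had log2 fold changes of -0.52 and -0.49 (limma adjusted p = 0.000630 and 0.00152). Nsdhl averaged 10.6 ± 0.407 FPKM with etelcalcetide and 14.5 ± 1.32 FPKM with RANKL alone, and Msmo1 averaged 14.2 ± 1.42 and 18.9 ± 1.43 FPKM in the same order (SD, n = 3 each). Sc5d, a desaturase close to the end of the route, fell by 0.50 on the log2 scale (limma adjusted p = 0.00213). Sqle, squalene epoxidase and a control point of flux, stood at 16.0, 13.7 and 13.8 FPKM with etelcalcetide, against 16.2, 17.1 and 16.5 FPKM with RANKL alone. Its fall was the smallest of the 7, at -0.28 (SE 0.0725, limma adjusted p = 0.0107), and etelcalcetide replicate 1 lay just below the RANKL libraries.

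The remaining sterol genes did not follow: Tm7sf2 rose, and Ebp and Dhcr7 did not pass. Tm7sf2, a sterol reductase of the endoplasmic reticulum whose reaction can also be carried out by the lamin B receptor, stood at 1.31, 1.29 and 1.05 FPKM with etelcalcetide, against 0.670, 0.572 and 0.953 FPKM with RANKL alone. The groups did not overlap, but etelcalcetide replicate 3 and RANKL replicate 3 lay close together. Tm7sf2 had only 75 to 89 reads with etelcalcetide and 40 to 61 with RANKL alone, and it shares 12.1% of its exon length with Vps51. The log2 fold change was 0.61 (SE 0.201, limma adjusted p = 0.0299), and the call was lost without RANKL replicate 1 or 2 or etelcalcetide replicate 1 or 2 (limma adjusted p = 0.0710, 0.0979, 0.0927 and 0.0999 in that order). It was also lost with no filter on low genes (limma adjusted p = 0.122). Ebp, the sterol isomerase, differed by -0.05 (95% interval -0.21 to 0.11), and Dhcr7, the reductase that makes cholesterol from its dehydro precursor, by 0.06 (95% interval -0.14 to 0.25).

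**Figure D2:**
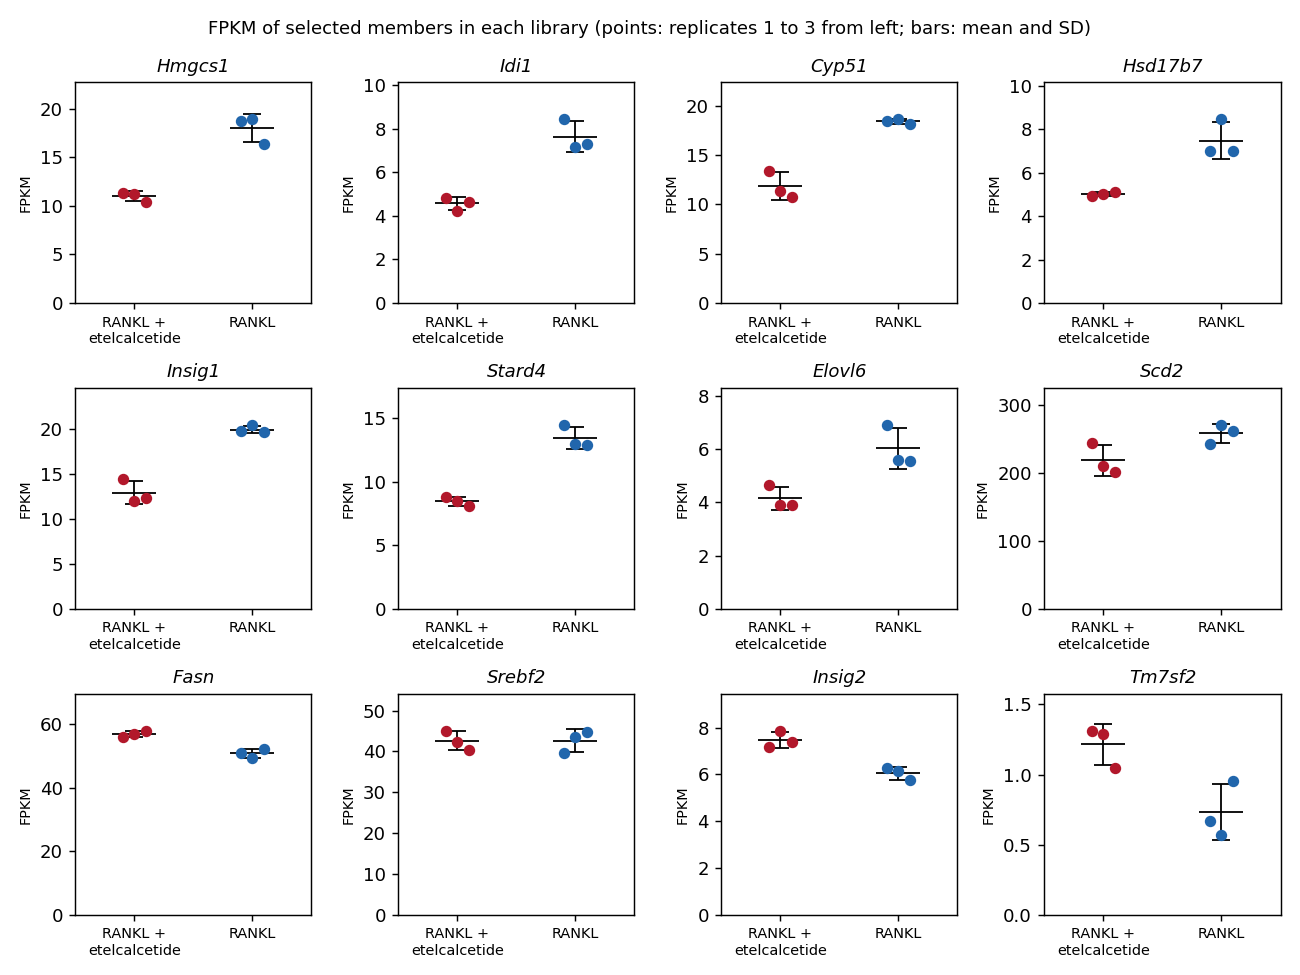
FPKM (y axis, from 0, a separate scale per gene) of 12 of the 32 genes in the 3 RANKL plus etelcalcetide libraries (left, red) and the 3 RANKL libraries (right, blue), with mean and SD as bars. Hmgcs1 lies at 10.4 to 11.4 FPKM with etelcalcetide and at 16.4 to 19.0 FPKM with RANKL alone, whereas the values of Srebf2 overlap between the groups.

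Among the genes that control the pathway, the transcripts of both SREBP factors did not pass the test, Insig1 and Stard4 fell, and Scap and Insig2 rose. Srebf2 stood at 45.0, 42.3 and 40.4 FPKM with etelcalcetide, against 39.5, 43.5 and 44.8 FPKM with RANKL alone, and Srebf1 at 21.7, 19.5 and 18.8 FPKM, against 18.5, 19.0 and 22.4 FPKM. Both sets of values overlapped fully, with log2 fold changes of -0.08 for Srebf2 (95% interval -0.23 to 0.07) and -0.08 for Srebf1 (95% interval -0.27 to 0.12). These are transcript levels, and cleavage of the proteins, which sets their activity, was not measured.

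Insig1 fell and Insig2 was slightly higher. Insig1, which retains the SCAP and SREBP complex and is itself a SREBP target (chromosome 5, 28071363 to 28078662), stood at 14.4, 12.0 and 12.3 FPKM with etelcalcetide, against 19.7, 20.4 and 19.6 FPKM with RANKL alone. The groups stood clearly apart, and the log2 fold change was -0.71 (SE 0.0758, limma adjusted p = 9.38e-05). Insig2, which does the same job without that feedback, stood at 7.17, 7.86 and 7.36 FPKM with etelcalcetide, against 6.26, 6.15 and 5.75 FPKM with RANKL alone (log2 fold change 0.22, SE 0.0781, limma adjusted p = 0.0408). The Insig2 call was lost without RANKL replicate 2 or 3 or without any 1 of the etelcalcetide libraries (limma adjusted p = 0.0737, 0.0895, 0.0543, 0.175 and 0.0908 in that order). The ratio of Insig1 to Insig2 FPKM was 2.01, 1.53 and 1.67 with etelcalcetide, against 3.15, 3.33 and 3.42 with RANKL alone. The ratios did not overlap, which follows from Insig1 being lower and Insig2 higher in every etelcalcetide library than in every RANKL library. The two-sided exact permutation p was therefore 0.1, the smallest that 3 against 3 libraries can give, and it adds no support to either result.

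Scap, the sterol-sensing escort of SREBP, rose, standing at 9.90, 9.89 and 9.20 FPKM with etelcalcetide, against 7.26, 7.13 and 8.06 FPKM with RANKL alone (log2 fold change 0.29, SE 0.0756, limma adjusted p = 0.0113). Its groups did not overlap, and the call was lost without etelcalcetide replicate 2 (limma adjusted p = 0.0518). Stard4, a cytosolic carrier that moves sterol between membranes and is a known SREBP2 target (chromosome 18, 33199355 to 33213862), stood at 8.80, 8.44 and 8.11 FPKM with etelcalcetide, against 14.5, 13.0 and 12.9 FPKM with RANKL alone. It had the smallest adjusted p of the 32 genes. The difference on the log2 scale was -0.74 (SE 0.0722, limma adjusted p = 5.28e-05).

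**Figure D3:**
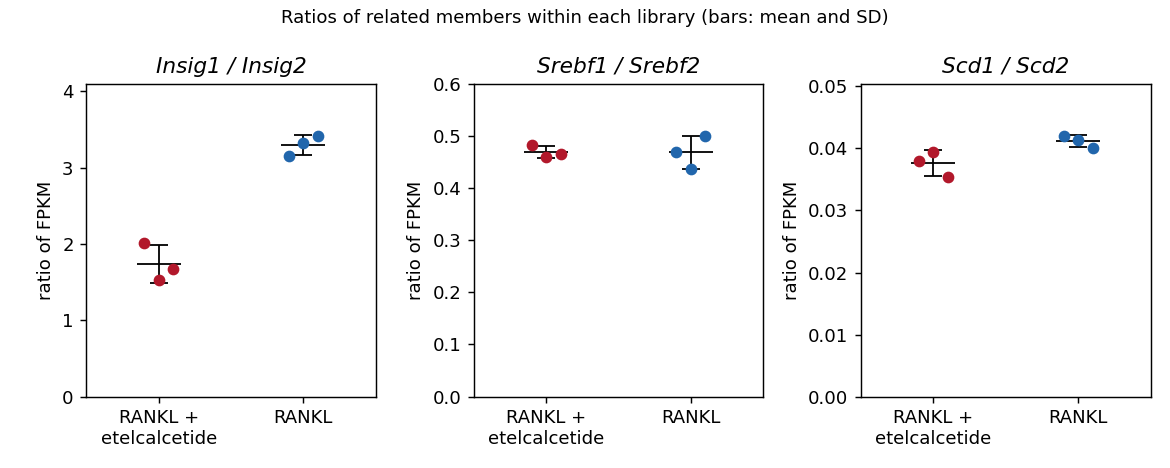
Ratio of FPKM (y axis, from 0) of Insig1 to Insig2, Srebf1 to Srebf2 and Scd1 to Scd2 in the 3 RANKL plus etelcalcetide libraries (left, red) and the 3 RANKL libraries (right, blue), with mean and SD as bars. The Insig ratio lies at 1.53 to 2.01 with etelcalcetide and at 3.15 to 3.42 with RANKL alone, whereas the Srebf ratios overlap.

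In the fatty acid part, the elongase and desaturases fell and the core synthesis enzymes did not pass. Acly, which cuts citrate into acetyl-CoA, stood at 74.9, 75.6 and 76.6 FPKM with etelcalcetide, against 74.2, 79.3 and 79.3 FPKM with RANKL alone (log2 fold change -0.11, limma adjusted p = 0.0753); without RANKL replicate 1 it passed (-0.15, limma adjusted p = 0.0285). Acaca, acetyl-CoA carboxylase and the committed step of fatty acid synthesis, differed by -0.07 (95% interval -0.22 to 0.09). Fasn, the synthase that builds palmitate, stood at 55.9, 56.7 and 57.8 FPKM with etelcalcetide, against 51.0, 49.2 and 52.0 FPKM with RANKL alone. Its groups did not overlap, yet its log2 fold change of 0.08 (95% interval -0.02 to 0.19) did not pass (limma adjusted p = 0.157), and with library totals it rose (0.16, limma adjusted p = 0.0195).

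Elovl6, which lengthens palmitate-sized chains (chromosome 3, 129532355 to 129638495), stood at 4.65, 3.90 and 3.91 FPKM with etelcalcetide, against 6.90, 5.60 and 5.55 FPKM with RANKL alone. Every etelcalcetide library was lower than every RANKL library, and the log2 fold change was -0.60 (SE 0.113, limma adjusted p = 0.00207). The stearoyl-CoA desaturases, which make monounsaturated fatty acids, were expressed very unequally. Scd2 was the most abundant of the 32 genes, at 244, 209 and 202 FPKM with etelcalcetide, against 243, 270 and 261 FPKM with RANKL alone, and Scd1 stood at 9.26, 8.26 and 7.15 FPKM, against 10.2, 11.1 and 10.5 FPKM. Scd1 fell by 0.45 and Scd2 by 0.33 on the log2 scale (limma adjusted p = 0.00480 and 0.00743). For Scd2 etelcalcetide replicate 1 overlapped the RANKL libraries before scaling but not after it. The ratio of Scd1 to Scd2 was 0.0376 ± 0.00203 with etelcalcetide and 0.0411 ± 0.000982 with RANKL alone (SD, n = 3 each; two-sided exact permutation p = 0.1).

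Fads1 and Fads2, neighbouring desaturases of polyunsaturated fatty acids on chromosome 19, had the smallest of the falls that passed in the fatty acid part. Fads1 averaged 65.2 ± 3.78 FPKM with etelcalcetide and 70.2 ± 2.74 FPKM with RANKL alone, and Fads2 averaged 70.0 ± 6.53 and 77.8 ± 3.22 FPKM in the same order (SD, n = 3 each). Their log2 fold changes were -0.19 and -0.24 (limma adjusted p = 0.0297 and 0.0232), and their groups overlapped before scaling. Without RANKL replicate 2, RANKL replicate 3 or etelcalcetide replicate 3 both calls were lost, with limma adjusted p = 0.0981, 0.0544 and 0.0865 for Fads1 and 0.0638, 0.0520 and 0.0582 for Fads2. With library totals they were lost as well (limma adjusted p = 0.156 for Fads1 and 0.0966 for Fads2).

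Before scaling, the summed levels did not overlap between the groups in the mevalonate and sterol parts, and overlapped in the other 2. After division by the scaling factors described below, the sums of those other 2 parts did not overlap either. The 8 mevalonate genes added up to 74.0 ± 2.28 FPKM with etelcalcetide and 87.5 ± 2.49 FPKM with RANKL alone, and the 10 sterol genes to 87.5 ± 5.96 and 109.7 ± 4.32 FPKM in the same order (SD, n = 3 each, before scaling). The 6 control and transport genes summed to 101 ± 5.48 FPKM with etelcalcetide and 109.5 ± 3.90 FPKM with RANKL alone, and their sum in etelcalcetide replicate 1, 107 FPKM, was above that in RANKL replicate 1, 105.8 FPKM. The fatty acid sum was 509 ± 31.9 FPKM with etelcalcetide and 562 ± 20.7 FPKM with RANKL alone, and its value in etelcalcetide replicate 1, 544 FPKM, was above the 538 FPKM of RANKL replicate 1. Scd2 alone averaged 218 ± 22.5 FPKM of that sum with etelcalcetide and 258 ± 13.9 FPKM with RANKL alone (SD, n = 3 each). In both groups Scd2 had the highest level. Fads2 and Acly came next and were within their spread of each other, with Acly at 75.7 ± 0.888 FPKM with etelcalcetide and 77.6 ± 2.97 FPKM with RANKL alone. Tm7sf2 and Fdps were the lowest in both groups, and with RANKL alone their values overlapped.

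Within the etelcalcetide group most of the 32 genes were lowest in the same library. Replicate 3 was the lowest of the 3 etelcalcetide libraries for 24 of the 32 genes and the highest for 1, while it was the lowest for 32.2% of all genes tested. Replicate 1 was the highest for 20 of the 32, against 36.5% of all genes tested. Within the RANKL group, replicate 1 was the lowest for 15 of the 32, against 40.2% of all genes tested. The labelled exposure differs between these libraries, and duration and library cannot be told apart. Without etelcalcetide replicate 3, 16 of the 32 genes fell and 2 rose.

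**Figure D4:**
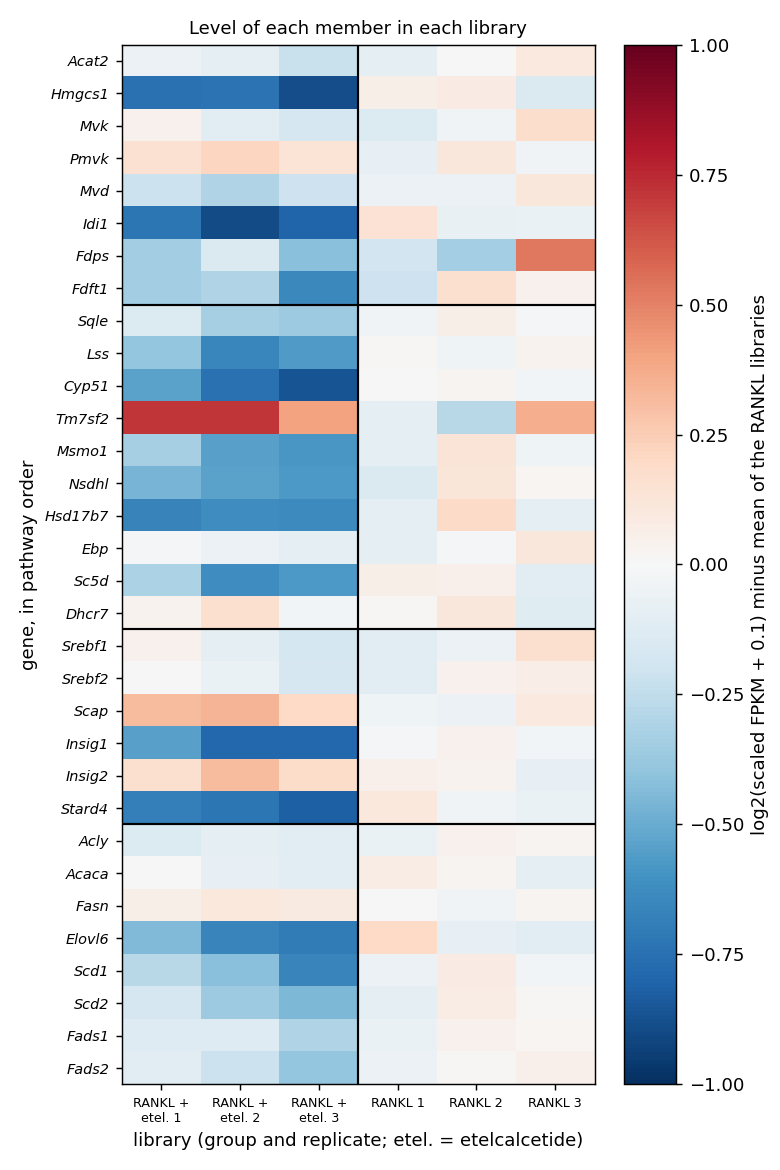
Level of each of the 32 genes (rows, in pathway order, black lines between the parts) in each library (columns, RANKL plus etelcalcetide left of RANKL), as log2(scaled FPKM + 0.1) minus the mean of the RANKL libraries; red is higher and blue lower. The sterol rows are mostly blue in all 3 etelcalcetide columns, and etelcalcetide replicate 3 is the lowest etelcalcetide library for 24 of the 32 genes.

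Other genes of lipid synthesis and SREBP control, listed by role, rose and fell at about the rates of all genes tested. Of 30 such genes 28 were tested, of which 7 rose, 8 fell and 13 did not pass, with a median log2 fold change of 0.08, against the 26.0% and 27.0% of all genes that rose and fell. Of the Golgi proteases that cut SREBP, Mbtps2 fell, standing at 5.86, 5.67 and 5.87 FPKM with etelcalcetide, against 8.94, 8.03 and 7.66 FPKM with RANKL alone (log2 fold change -0.57, limma adjusted p = 0.000401), with 28.4% of its exon length shared with Yy2. Mbtps1 did not pass (0.13, limma adjusted p = 0.0614; 3 of 15 alternatives called it higher). Rnf145, a ubiquitin ligase of the endoplasmic reticulum reported to act on SCAP, rose to 25.8, 25.2 and 27.6 FPKM with etelcalcetide, against 13.3, 13.4 and 12.7 FPKM with RANKL alone (0.91, SE 0.0570, limma adjusted p = 4.11e-06). Erlin2, a membrane scaffold of protein degradation in the same organelle, rose by 0.38 on the log2 scale (limma adjusted p = 0.000839).

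Enzymes that feed or branch from the pathway were also on this list. Me1, the cytosolic malic enzyme that supplies NADPH for fatty acid synthesis, stood at 5.05, 4.46 and 4.51 FPKM with etelcalcetide, against 41.6, 25.1 and 26.4 FPKM with RANKL alone. This was the largest fall of the 28 tested genes, at -2.75 (SE 0.168, limma adjusted p = 3.73e-06), and RANKL replicate 1 was high within its group. Acss2, which makes acetyl-CoA from acetate, rose to 2.19, 2.44 and 2.63 FPKM with etelcalcetide, against 1.15, 1.39 and 1.18 FPKM with RANKL alone (0.84, limma adjusted p = 0.000825). Elovl5, an elongase of polyunsaturated chains, rose by 0.40 and Npc1, which exports cholesterol from lysosomes, by 0.32 on the log2 scale (limma adjusted p = 0.000235 and 0.00534). Hsd17b12, the reductase of the chain elongation cycle, fell by 0.54 (limma adjusted p = 8.56e-05), and Ggps1, which makes the geranylgeranyl donor of protein prenylation, fell by 0.39 (limma adjusted p = 0.0342). The Ggps1 values were 3.98, 3.38 and 4.12 FPKM with etelcalcetide, against 5.73, 4.54 and 4.11 FPKM with RANKL alone, so the groups overlapped before scaling but not after it. Without RANKL replicate 1 its difference was -0.25 on the log2 scale and did not pass (limma adjusted p = 0.0861). Lbr, the lamin B receptor with sterol reductase activity, and Soat1, which esterifies cholesterol, did not pass (-0.11 and 0.03, limma adjusted p = 0.0746 and 0.687).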

How the data were processed

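RNA-seq of RAW264.7 cells covered 3 libraries with RANKL plus etelcalcetide and 3 with RANKL alone, grouped and numbered by their titles. The values the authors deposited are FPKM, in a table of 55536 Ensembl gene IDs for every library. Per the submitters' processing notes, the tools include HISAT2 2.1.0, featureCounts 1.6.0, Trimmomatic 0.38, DESeq2 1.22.1, CASAVA, FastQC and MultiQC; what each one did is not stated. These notes name the build GRCh38, but all 55536 IDs were those of mouse GENCODE M21, which gave symbols, exon lengths and GRCm38 coordinates.

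FPKM times merged exon length gave whole reads for 100% of the values above 0, within 0.01 reads, in every library. Scaling factors were trimmed means of M values of those reads, with a trim of 30% for M and 5% for A. They were 1.01 to 1.04 with etelcalcetide and 0.967 to 0.978 with RANKL alone. FPKM divided by these factors plus a pseudocount of 0.1 was log2-transformed and fitted with limma 3.58.1 in R 4.3.3, on group alone, with a prior variance that follows the mean. Genes needed 0.5 FPKM and 10 reads in at least 3 libraries. Fold changes on this scale understate the change of low genes. Printed FPKM values are as deposited, before scaling, so the direction of small differences can depart from that of the fold change.

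The 32 genes, the list of 30 others and the marker lists were chosen with earlier results of these data known. Every one of the 32 is reported. Of the list of 30, 8 genes were named whatever their value, with the 4 others of smallest adjusted p. Alternatives covered scaling, filter, pseudocount, voom on recovered reads, a replicate block and each library left out. Intervals are limma's. Sequences are RefSeq's, on GRCm38.p6.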

Additional observations from a re-analysis of the deposited data

How the results depend on the processing

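Of the 18 genes that fell, 14 also fell under all 15 alternatives: Hmgcs1, Idi1, Sqle, Lss, Cyp51, Msmo1, Nsdhl, Hsd17b7, Sc5d, Insig1, Stard4, Elovl6, Scd1 and Scd2. None of the 3 that rose (Tm7sf2, Scap and Insig2) did so under all 15. Leaving out each library gave 15 to 19 genes lower and 0 to 2 higher of the 32, the 0 without etelcalcetide replicate 2. It gave 0 to 1 higher in the mevalonate part, 0 to 1 in the sterol part and 0 to 2 among control genes, 3 to 6 lower in the fatty acid part, and 5 to 7 lower and 5 to 10 higher among the other pathway genes. With library totals 5 of the 32 rose, including 1 mevalonate and 1 fatty acid gene, 3 fatty acid genes fell, and 12 other pathway genes rose. With no filter 1 of the 32 rose, 1 control gene and 0 sterol genes, 3 fatty acid genes fell and 5 other pathway genes fell. Among control genes 1 rose with upper-quartile scaling, with voom on recovered reads, and with the replicate block.

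Same-numbered libraries of the 2 groups did not deviate together (correlations across genes of 0.0744, -0.0188 and -0.0299 for replicates 1, 2 and 3), so the numbers were not used as pairs, although the labelled days match. With the replicate block 18 of the 32 genes fell and 2 rose, and 5709 of all genes changed, against 5894 without it.

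Calls at the threshold were lost in several settings beside those given above. Insig2 was no longer called higher with upper-quartile scaling, no filter, voom on recovered reads or the replicate block (limma adjusted p = 0.0539, 0.0638, 0.0548 and 0.0576 in that order). Mvd was not called lower with library totals (limma adjusted p = 0.0844), and with no filter the same held for Fdft1, Fads1 and Fads2 (limma adjusted p = 0.0507, 0.0683 and 0.0682). Ggps1 lost its call in 6 of 15 alternatives, with limma adjusted p up to 0.116.

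Signs changed only for genes that had not passed. With library totals the log2 fold changes became 0.025 for Ebp, 0.0042 for Srebf1 and 0.013 for Acaca. Leaving out each library gave -0.15 to 0.0066 for Mvk, -0.10 to 0.0019 for Ebp, -0.0034 to 0.11 for Dhcr7, -0.13 to 0.0065 for Srebf1 and -0.0085 to 0.064 for Soat1, and Dhcr7 was also below 0, at -9.9e-05, without etelcalcetide replicate 2. No other sign changed among the 32 genes and the 12 other named genes under the 15 alternatives. The cause of these changes was not tested.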
